A study of Drosophila melanogaster with 3 samples.

Results

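The genomic binding of shaven (sv), a Drosophila transcription factor of the Pax family, was mapped by chromatin immunoprecipitation and sequencing (ChIP-seq), and the peaks described here are those that lay in an intron at a moderate distance from a transcription start. A peak was taken when its summit, the position of highest enrichment within it, was inside a protein-coding gene, in no exon of any annotated transcript, and 501 to 2000 bp from the nearest annotated start of any gene. Of the 3823 peaks of the optimal set, which are those that passed the authors' test of reproducibility, 513 met this rule, or 13.4%. They lay in 431 host genes, of which 336 held 1 such peak, 77 held 2 and 18 held 3 or more, and 43 of the peaks were inside more than 1 protein-coding gene. All replicates came from 1 transgenic line that stably expresses isoform RD of sv with GFP at its C-terminal end. Whole third-instar larvae of mixed sex that had begun to wander were used, in 1 group of 3 biological replicates, with no other genotype, stage or treatment. The sample descriptions name an antibody against GFP, while the antibody field names sv. Whole larvae mix all tissues, so a peak cannot be assigned to a cell type.

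Pax proteins bind DNA through a paired domain, and sv is known for its part in bristle development and in eye cone and pigment cells. In flies, first introns often hold enhancers, which are stretches of DNA that transcription factors bind to raise the activity of a gene. Many genes also have several starts, so that an intron of one transcript can lie upstream of the start of another. A peak in such an intron can therefore be downstream of one start and upstream of the next. An excess of reads at a site shows that DNA from that site was recovered with the tagged protein, directly or through other proteins.

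The sequences at 6 of the 513 peaks are shown as examples of the strongest peaks and of those with the base pattern described next. Each is the plus strand of dm6, 241 bases centred on the summit, with the 6-base word ACAGTG, or CACTGT where it reads on the minus strand, in capitals. The first 3 are the strongest peaks whose window overlaps no exon, on chromosome arms other than one whose sequence is not reported here. Of these 3, only the peak in Lk6, which encodes a kinase of the translation factor eIF4E, holds the word.
ush, chr2L:480955-481195: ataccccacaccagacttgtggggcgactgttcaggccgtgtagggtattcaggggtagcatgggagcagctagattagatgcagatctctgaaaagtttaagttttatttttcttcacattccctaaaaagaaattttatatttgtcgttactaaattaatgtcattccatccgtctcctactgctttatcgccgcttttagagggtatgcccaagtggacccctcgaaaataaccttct
Lk6, chr3R:11760921-11761161: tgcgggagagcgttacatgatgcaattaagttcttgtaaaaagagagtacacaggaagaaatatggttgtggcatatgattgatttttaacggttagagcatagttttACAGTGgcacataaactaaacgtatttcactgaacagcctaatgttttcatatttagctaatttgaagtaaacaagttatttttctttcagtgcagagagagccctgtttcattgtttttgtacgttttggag
CG9663, chr2L:3302061-3302301: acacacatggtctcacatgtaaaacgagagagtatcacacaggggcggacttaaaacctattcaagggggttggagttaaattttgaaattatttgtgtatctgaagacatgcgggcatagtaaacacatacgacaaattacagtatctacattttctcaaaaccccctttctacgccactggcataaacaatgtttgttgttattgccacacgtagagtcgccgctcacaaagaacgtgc
The next 3 are among the strongest remaining peaks, by the same conditions, with at least 2 copies of the word.
Csk, chr3R:11649555-11649795: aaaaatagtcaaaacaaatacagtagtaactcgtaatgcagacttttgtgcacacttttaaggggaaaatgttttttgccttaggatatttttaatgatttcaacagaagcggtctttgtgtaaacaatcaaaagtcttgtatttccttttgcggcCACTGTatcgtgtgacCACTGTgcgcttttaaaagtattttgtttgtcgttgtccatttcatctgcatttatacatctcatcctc
for, chr2L:3655688-3655928: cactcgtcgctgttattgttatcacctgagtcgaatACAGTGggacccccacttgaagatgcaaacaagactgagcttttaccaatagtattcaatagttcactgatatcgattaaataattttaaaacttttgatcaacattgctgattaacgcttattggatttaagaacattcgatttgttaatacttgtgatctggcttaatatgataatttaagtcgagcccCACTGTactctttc
NFAT, chrX:13640372-13640612: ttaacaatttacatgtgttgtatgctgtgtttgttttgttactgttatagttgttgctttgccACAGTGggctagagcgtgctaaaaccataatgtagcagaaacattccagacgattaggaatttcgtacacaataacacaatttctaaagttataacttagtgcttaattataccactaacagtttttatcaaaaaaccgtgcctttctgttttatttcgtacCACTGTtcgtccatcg
In the windows of for and NFAT, the left copy reads ACAGTG and the right copy reads CACTGT, so that both point to the summit. In the window of Csk both copies lie to the right of the summit and read CACTGT. Csk encodes a kinase that restrains Src kinases, for a cGMP-dependent protein kinase, and NFAT a transcription factor.

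The word ACAGTG occurred within 150 bp of the summit in 162 of the 513 near-start intronic peaks, or 31.6% (95% Wilson interval 27.7 to 35.7). The same window centred 450 bp to the left of each summit held it in 12.5% of cases and 450 bp to the right in 13.5%. It was found in 11.5% of 26859 windows that tile the intron sequence meeting the position rule, and in 13.5% of windows at all 23694 annotated starts. This word was picked after its values were seen, because it had the highest ratio, of the 2080 6-mers, among those in at least 15 peaks, between summits and that intron sequence in windows of 101 bp, where it occurred in 9.94% of the peaks and 3.87% of 96505 windows. These windows at the summit are therefore a description and not a test. The width of 301 bp was also set after the profile around the summit was seen. Distal intronic peaks, over 2000 bp from any start, held the word within 150 bp in 27.8% of cases and promoter peaks, within 500 bp of a start, in 24.4%.

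Within 150 bp, the share with the word was higher in stronger peaks. It was 40.6% in the strongest 128 near-start intronic peaks, 34.4% and 28.9% in the next blocks of 128, and 22.5% in the weakest 129. In the windows of 101 bp the same blocks gave 12.5%, 9.38%, 8.59% and 9.30%, with no order after the first. The replicate lists gave the same order. Among near-start intronic peaks of the strongest 3823 of each replicate the share was 30.4%, 32.9% and 34.2% in replicates 1, 2 and 3, against 14.4%, 13.7% and 12.4% among those ranked 15001 to 30000. The means were 32.5% ± 1.94 and 13.5% ± 1.04 (SD, n = 3 each), and the 2 sets of values did not overlap. In windows of 101 bp, the difference of strong minus weak peaks was 6.40 percentage points ± 1.74 (SD, n = 3; exact two-sided sign-flip test over replicates, p = 0.25, the smallest that 3 replicates allow). These lists come from the same samples as the optimal set, so they are not independent of the choice of the word.

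The copies of the word had a preferred direction relative to the summit. Of 215 copies within 150 bp, 170 pointed to the summit, or 79.1%. To the left, 77 read ACAGTG and 26 read CACTGT, while to the right 19 read ACAGTG and 93 read CACTGT. Windows of the same width were also centred 1000 bp to the left and to the right of each summit. In these distant windows, 76 of 157 copies, or 48.4%, pointed to the centre of the window. Copies lay on both sides of the summit in 42 peaks, and 36 of these had a pair that faced each other across the summit, while 0 had only a pair that faced away. The first bases of the nearest facing copies were 88 to 274 bp apart, with a median of 160.0 bp. The direction was not used in choosing the word, which was counted on both strands.

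The share of copies pointing to the summit was 79.5% in the stronger 256 peaks and 78.4% in the weaker 257. In the strongest lists of replicates 1, 2 and 3 it was 75.9%, 75.3% and 75.8% at near-start intronic summits, against 55.7%, 54.8% and 55.2% among those ranked 15001 to 30000. The means were 75.7% ± 0.316 and 55.2% ± 0.465 (SD, n = 3 each). Distal intronic peaks of the optimal set had 74.1% of 212 copies pointing to the summit and promoter peaks 65.7% of 639, so the arrangement was seen in all 3 classes. Beside the 170 copies that pointed to the summit, the base after the word was G in 53.5% and T in 4.12%, and the base before it was C in 40.0% and T in 42.4%. Beside 76 such copies in the distant windows, the base after was G in 36.8% and T in 14.5%, and the base before was C in 42.1% and T in 13.2%.

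The word was rarer at the summit itself than to its sides. In bins of 50 bp, a match was counted only when it lay wholly within the bin. The word was found 51 to 100 bp to the left of the summit in 8.58% of the peaks. It was found 50 to 99 bp to the right in 7.41% and 100 to 149 bp to the right in 7.60%. The bins on either side of the summit held it in 4.68% and 4.48%. GC content also had its minimum at the summit. Its mean was 33.0% and 33.2% in the central bins of 50 bp and 43.8% in the bin 150 to 199 bp to the right. The mean GC content of the central 101 bp was 33.1% (SD over 513 peaks 8.08), against 33.0% at distal intronic peaks, 36.2% at promoter peaks and 39.0% in the tiled intron windows. In the replicates it was 34.4% ± 0.809 at strong near-start intronic peaks and 39.6% ± 0.569 at those ranked 15001 to 30000 (SD, n = 3 each), lower in 3 of 3 replicates. GC content thus differed between sets whose motif shares are compared here, and its part in those shares was not tested.

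**Figure D1:**
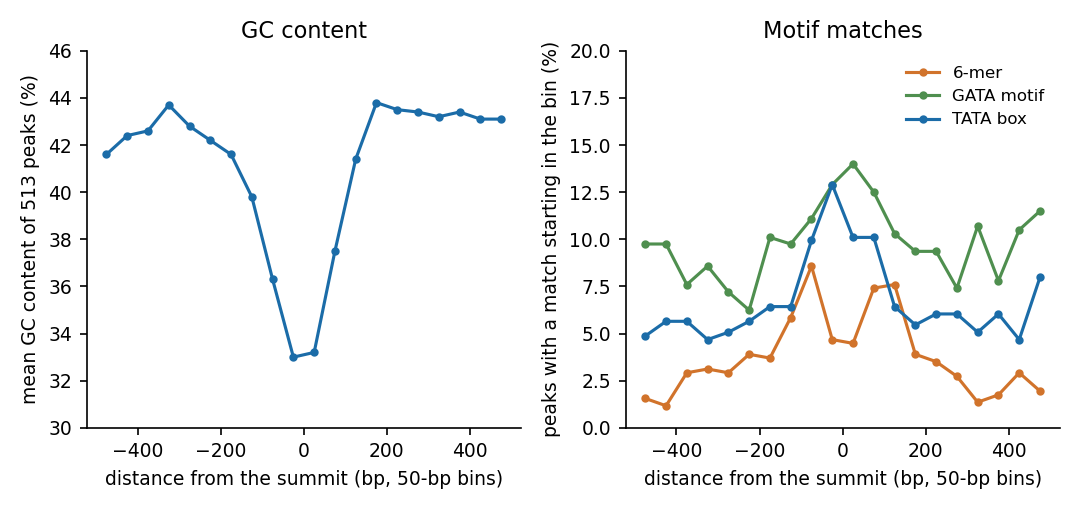
Mean GC content (left, percent) and share of peaks with a motif match in each bin (right, percent) against the distance from the summit in bp, in bins of 50 bp, for the 513 near-start intronic peaks. A match was counted only when it lay wholly within a bin, although the axis label says starting in the bin. The 6-mer is ACAGTG on either strand. GC content has its lowest value at the summit, and the 6-mer has a maximum on each side of it while the GATA motif and the TATA box have theirs at the centre.

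For 20 motifs sought on both strands in the central 101 bp, shares were set against those of the tiled intron windows. The highest ratios were those of TATAAA, a run of 8 A, the GATA motif and TAATTA, all rich in A and T. Not every motif of mostly A and T was more frequent, as TATCGATA below shows. TAATTA occurred in 10.7% of the peaks against 8.37% of the tiled windows. The GATA motif, which is GATA after A or T and before A or G, occurred in 138 peaks (26.9%, Wilson interval 23.2 to 30.9), against 19.7% of windows and 20.1% of windows beside the peaks. TATAAA occurred in 23.2% against 14.6% of the tiled windows, and a run of 8 A in 11.3% against 7.17%. Distal intronic peaks held the GATA motif in 25.7%, TATAAA in 23.8% and the run of 8 A in 9.39%. Promoter peaks held them in 20.4%, 19.6% and 5.87%. The share with the GATA motif was 25.6% ± 1.59 at strong peaks of the replicates and 21.7% ± 1.01 at those ranked 15001 to 30000 (SD, n = 3 each), higher in 3 of 3. The paired-domain core GTCACGC occurred in 2 peaks (0.390%), against 0.486% of windows. TATCGATA, bound by DREF and known from promoters, occurred in 1 peak (0.195%) against 0.218% of windows. Promoter peaks of the same set held TATCGATA in 3.33%. A match or its absence says only that these letters are or are not in the window.

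The signal of the near-start intronic peaks, the authors' own value per peak, ran from 72.7 to 2018 with a median of 113, against 104 at distal intronic peaks, 117 at promoter peaks and 114 over all optimal peaks. Ranked by signal, the 3823 peaks held near-start intronic peaks evenly, with 126 in ranks 1 to 956, 129 in ranks 957 to 1912, 130 in ranks 1913 to 2868 and 128 in the rest. The other classes changed along the ranking. In the relaxed pooled list of 30000 peaks, near-start intronic peaks were 75 of the first 500, and made up 11.2% of ranks 501 to 1000, 13.7% of ranks 1001 to 2000 and 11.3% of ranks 25001 to 30000. Distal intronic peaks made up 15.6% of ranks 1001 to 2000 and 26.5% of the last range, and promoter peaks 57.4% and 19.1%.

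**Figure D2:**
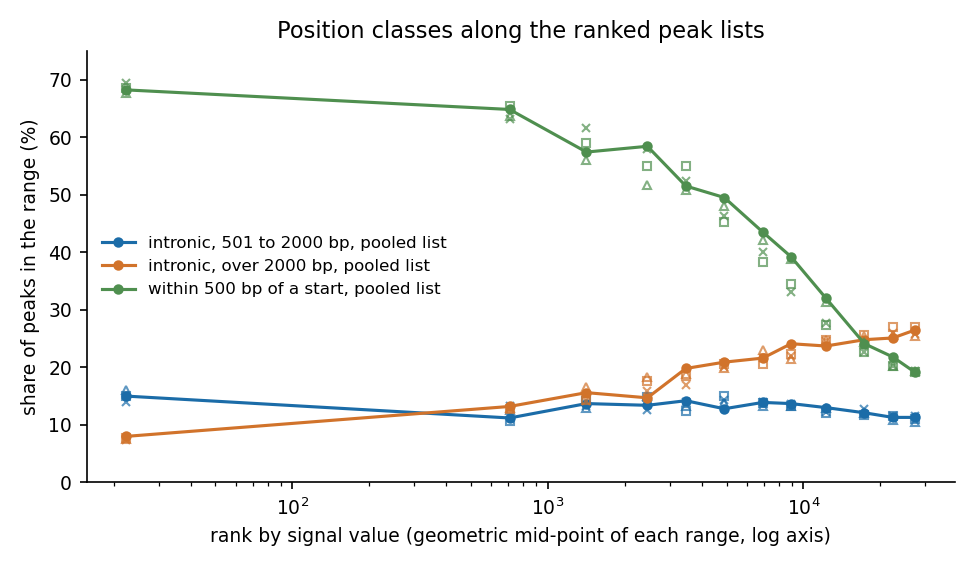
Share of peaks in each of 3 position classes (percent) against the rank by signal (log axis), for the pooled list (lines with dots) and replicates 1, 2 and 3 (triangles, squares and crosses). The share of near-start intronic peaks changes less than the others (11.2% in ranks 501 to 1000 of the pooled list, 13.7% in ranks 1001 to 2000 and 11.3% in the last range), while the promoter share falls and the distal intronic share rises.

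In the replicates, near-start intronic peaks were 13.9%, 13.8% and 13.3% of the strongest 3823 and 11.1%, 11.4% and 12.0% of ranks 15001 to 30000. The difference was 2.14 percentage points ± 0.703 (SD, n = 3; exact two-sided sign-flip test, p = 0.25, the smallest possible). It was positive in 3 of 3 replicates. Labels give the replicates as biological, and no batch is named.

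The near-start intronic peaks were found again at about the same share as optimal peaks in general. A peak counted as found when a summit lay within 200 bp among the strongest 3823 of a replicate. By that measure 310 of 513, or 60.4% (Wilson interval 56.1 to 64.6), were found in all 3 replicates, against 60.6% of all 3823 optimal peaks. A further 140 were found in 2 replicates, 59 in 1 and 4 in 0. In the whole replicate lists 493 had a match in all 3. The share found in all 3 depended on rank, from 125 of 126 in ranks 1 to 956 to 11 of 128 in ranks 2869 to 3823. Replicates 1, 2 and 3 held 86.9%, 80.5% and 79.9% of the near-start intronic peaks and 85.2%, 77.7% and 74.3% of the distal intronic ones, a difference of 3.38 percentage points ± 2.04 (SD, n = 3; exact two-sided sign-flip test, p = 0.25). The optimal set was made from the same replicates, so finding its peaks in them is no independent test.

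The strongest near-start intronic peak, and the strongest of the whole set, lay in the first intron of ush at chr2L:480817-481351. ush encodes a zinc finger cofactor of GATA factors. Its signal was 937, 522 and 546 in replicates 1, 2 and 3, and it ranked 1 in each. The summit was 1387 bp upstream of the nearest start, which belongs to cbt, a gene of a zinc finger transcription factor. The optimal set also has a promoter summit 362 bp from that start, at a signal of 359, so that the intronic peak was 5.62 times as strong. The peak in CG11050, at chr2L:6612432-6612924, had signals of 513, 314 and 344 and ranks of 3, 4 and 5. The peak in the first intron of Lk6, at chr3R:11760825-11761247, had signals of 415, 273 and 359 and ranks of 10, 7 and 4. These 3 peaks ranked among the first 10 in every replicate.

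The peak in CG9663, at chr2L:3301936-3302623, ranked 19, 13 and 6 in replicates 1, 2 and 3 with signals of 341, 239 and 331. Its interval holds another summit 203 bp away, which ranked 72, 88 and 146. The promoter summit at the start of CG9663 ranked 3818 of 3823, so the stronger of these intronic summits had 12.7 times its signal. A peak inside HmgZ and HmgD, which both encode HMG-box chromatin proteins, lay 599 bp upstream of a start of HmgZ and ranked 17, 28 and 17. A peak in Trl, the gene of the GAGA factor, lay 1528 bp downstream of a start of Trl and ranked 26, 9 and 24. A peak inside chif, which encodes a partner of the replication kinase Cdc7, and Hyls1, a centriole protein gene, ranked 23, 25 and 25. Peaks in CG32772, CG9837 and the transcription factor gene Adf1 completed the 10 that were within the first 100 in all 3 replicates, out of 74 optimal peaks that were.

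**Figure D3:**
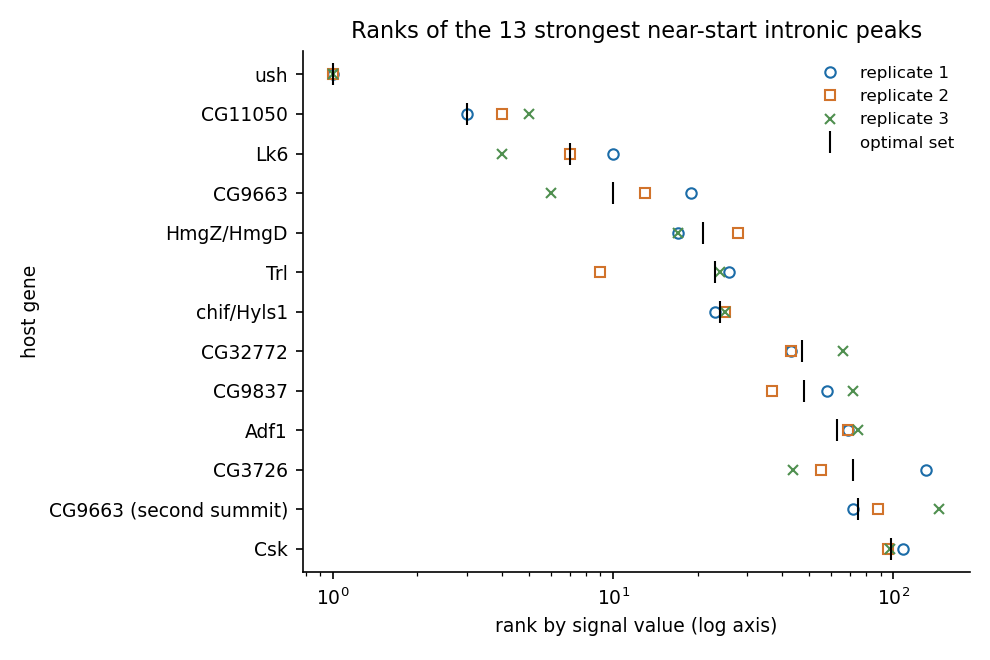
Rank by signal (log axis) of the 13 strongest near-start intronic peaks in the optimal set (bars) and in replicates 1, 2 and 3 (circles, squares and crosses), by host gene. All 13 ranked within the first 150 of every replicate, and the peak in ush ranked 1 in each.

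The remaining peaks of the strongest 15 included those in CG3726, Csk and for. Their ranks in replicates 1, 2 and 3 were 131, 55 and 44 in CG3726, 108, 96 and 97 in Csk, and 135, 116 and 107 in for. Of the 15, 13 were in a first intron, 14 had a start of the host gene as the nearest start, and 5 held ACAGTG within 150 bp. The GC content of their central 101 bp ran from 22.8% to 44.6%. The peaks nearest the limits of the rule were at 502 bp in whd and 503 bp in dpy, with summits just outside at 499 bp in SREBP and 498 bp in Eip63F-1. At the other limit they were at 2000 bp in fra and 1998 bp in hng3, with summits just outside at 2004 bp in px and 2005 bp in snu.

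Summits were denser in introns near a start than farther from one. The sequence that meets the position rule measured 11.2 Mb, or 8.14% of the assembly, and held 45.8 summits per Mb. Introns over 2000 bp from a start held 13.9 per Mb, sequence within 500 bp of a start 123 per Mb and the whole assembly 27.8 per Mb. In the strongest lists of the replicates the near-start intronic density was 46.6 ± 0.996 per Mb and the distal intronic density 14.0 ± 0.782 (SD, n = 3 each). Close to the start the density differed by side. In introns up to 250 bp from a start, which the rule leaves out, it was 195 per Mb upstream and 53.2 per Mb downstream. From 250 to 500 bp it was 169.8 per Mb upstream and 45.3 per Mb downstream. From 501 to 750 bp upstream the density was 83.5 per Mb, against 47.7 per Mb over the same distance downstream, and 83.5 ± 6.03 against 54.6 ± 1.53 over the replicates (SD, n = 3 each). Farther upstream it was 29.0 to 39.3 per Mb, and farther downstream 30.2 to 55.0 per Mb, before reaching 16.6 and 23.1 per Mb just beyond 2000 bp.

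**Figure D4:**
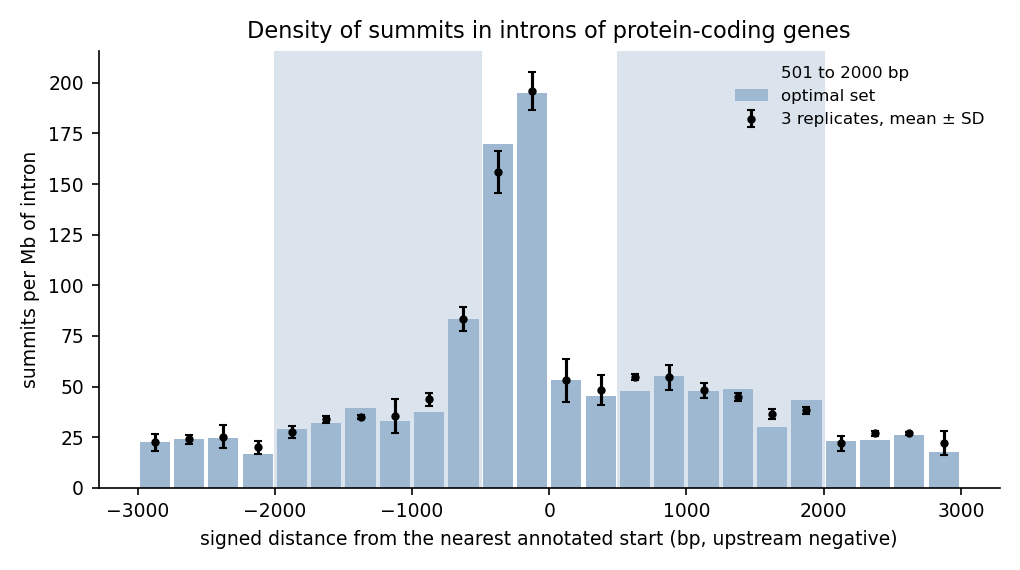
Summits per Mb of intron of protein-coding genes (vertical axis) against the signed distance from the nearest annotated start in bp, upstream negative, in bins of 250 bp. Bars are the optimal set, dots with error bars the mean ± SD of the strongest 3823 peaks of 3 replicates, and the shaded ranges hold the near-start intronic peaks. The density 501 to 750 bp upstream, 83.5 per Mb, stands above the other bins of the shaded ranges. It lies below the unshaded bins nearer the start on that side, at 169.8 and 195 per Mb.

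The near-start intronic peaks lay more often near a start of their own host gene than the sequence they could have occupied. The nearest start belonged to the host in 440 peaks, or 85.8%, against 70.8% of the bases that meet the rule. Of all 513, 310 lay downstream of that start (60.4%, against 54.1% of bases) and 130 lay upstream of it, in an intron of a longer transcript (25.3%, against 16.7%). For 73 peaks the nearest start was that of another gene (14.2%, against 29.2%). That gene was protein-coding for 38, a non-coding RNA for 26, a tRNA for 6 and a snoRNA for 3. A first intron of some transcript held 426 peaks, or 83.0%, against 64.0% of bases. The median length of the intron was 5528 bp, against 4635 bp over the bases that meet the rule.

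These shares also differed between strong and weak peaks of the replicates. The nearest start was of the host in 85.9% ± 0.434 of near-start intronic peaks in the strongest lists and 77.0% ± 0.318 of those ranked 15001 to 30000 (SD, n = 3 each). A first intron held 83.3% ± 0.411 and 70.5% ± 0.311. Each was higher in 3 of 3 replicates (exact two-sided sign-flip test, p = 0.25 each, unadjusted over the 10 features compared).

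Most of the near-start intronic peaks stood without a promoter peak at the nearest start. An optimal promoter summit lay within 500 bp of that start for 131 of the 513, or 25.5%. It did so for 20.7% of distal intronic peaks and for 15.1% of all 23694 annotated starts. Within the 131 pairs the intronic peak was the stronger in 64, and the median ratio of intronic to promoter signal was 0.985. The ratio ran from 0.119 at Fhos, where the intronic peak ranked 3134 and the promoter summit 30, to 12.7 at CG9663. It was 6.63 at chif, 5.28 at Adf1 and 4.03 at Csk. Another optimal summit lay within 2000 bp of 49.1% of the near-start intronic peaks and of 34.4% of all optimal peaks. The position rule itself puts every near-start intronic peak within 2000 bp of a start, and 58.9% of optimal peaks are promoter peaks. How much of the difference comes from the rule was not tested.

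Several host genes held 3 or more of the peaks. Not all of these are well separated. Pairs of the summits lay 202 to 237 bp apart in genes including CG1677, CHES-1-like, larp, shn, Leash, Sik3 and tou. The counts below therefore include summits near the smallest spacing of 199 bp. CG1677 held 7 of its 15 optimal summits in this class, on the X chromosome, with ranks of 446 to 3811. Their nearest starts were those of brk, which encodes a repressor of Dpp target genes, Dok, which encodes a signalling adaptor, CBP, unc-119 and CG42780. The peak near the start of Dok also lay inside Dok. CHES-1-like, a forkhead transcription factor gene, held 6, of which 5 ranked 231 to 595, and 5 of the 6 were found in all 3 replicates. larp, which encodes an RNA-binding protein, held 5 with ranks of 1389 to 3169, of which 0 were found in all 3. shn, which encodes a zinc finger cofactor of Mad, held 5 with ranks of 986 to 3579. HmgZ and Svil held 4 each, and Btk, HmgD, Leash, NFAT, RhoGAP18B, Sik3, Tlk, Tpr2, Trl, pum, px and tou 3 each. The 3 of HmgD are also among the 4 of HmgZ. In NFAT, RhoGAP18B, Tpr2 and Trl all 3 were found in every replicate.

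The X chromosome held 129 of the 513 near-start intronic peaks, or 25.1%, against 19.0% of the sequence that meets the rule. The density there was 60.6 per Mb, against 39.2 to 47.8 per Mb on arms 2L, 2R, 3L and 3R. In the replicates the X held 60.1, 61.1 and 52.1 summits per Mb, against 41.1 to 49.8 on the other 4 arms, so the ranges did not overlap. Of all optimal peaks 18.0% were on the X, and of distal intronic peaks 26.6%. The X share was 23.6% ± 1.54 in the strongest lists and 17.0% ± 1.01 at ranks 15001 to 30000 (SD, n = 3 each). Chromosome 4, with 0.124 Mb of such sequence, held 0. The labels do not give the proportion of the sexes.

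**Figure D5:**
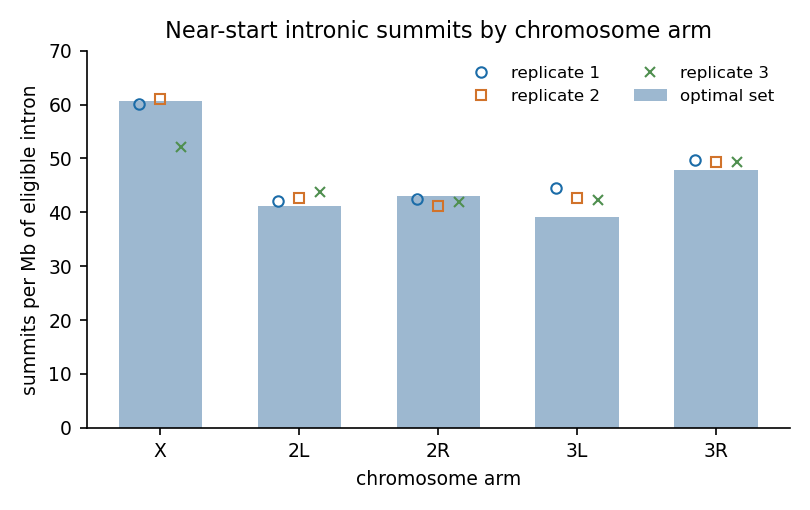
Near-start intronic summits per Mb of sequence that meets the position rule (vertical axis) on 5 chromosome arms. Bars are the optimal set and points the strongest 3823 peaks of replicates 1, 2 and 3, which on the X lie from 52.1 to 61.1 per Mb, above those of the other arms.

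Genes of 18 lists, chosen for pathways and tissues of the larva, held a near-start intronic peak in 32 of 277 cases, or 11.6%, against 431 of 13968 protein-coding genes, or 3.09%, and 4.78% of the 9015 genes with any sequence meeting the rule. Listed genes differ from others in intron content, so the density per Mb of that sequence is given beside each count above 0, where the value for all genes is 45.8. With only the strongest summit kept within 250 bp, a comparison added after seeing the data, the value for all genes was 41.5 per Mb. The Dpp and Hedgehog, EGFR and Ras, and ecdysone lists then gave 159.7, 71.9 and 45.8 per Mb. Among the lists, only those of insulin and TOR and of fat body also changed, as given below. Each list has under 25 genes and rests on few peaks, and no test was made of it.

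Of Dpp and Hedgehog genes 4 of 19 held a peak, at 183 per Mb, the highest density of the 18 lists. The strongest was in Mad, which encodes the transcription factor of Dpp signalling, with ranks of 467, 317 and 216 in replicates 1, 2 and 3, followed by peaks in shn at optimal ranks 986 and 1227. shn holds 5 of the 8 peaks of the list. The peaks in the Dpp receptor genes tkv (rank 2595) and put (rank 3409) were each found in 1 replicate. Of insulin and TOR genes 3 of 17 held one, at 152 per Mb, with Lk6 first. Lk6 and scyl each have a pair of summits within 250 bp, and with only the strongest summit kept within 250 bp, a comparison added after seeing the data, the density of this list was 91.4 per Mb. The peak in InR, the insulin receptor gene, lay 646 bp upstream of a start of InR and ranked 465, 353 and 349. scyl, which encodes an inhibitor of TOR signalling, had its strongest peak at rank 1554. EGFR and Ras genes held one in 4 of 19, at 89.9 per Mb. The strongest were in drk (rank 962), the adaptor of receptor tyrosine kinases, and in the kinase gene Raf (ranks 1285 and 2090). The peak in drk was nearest to the start of mars, and the Raf peak at rank 1285 to that of a non-coding RNA gene. The JNK list had 2 of 13, at 91.2 per Mb, in kay (rank 956), which encodes Fos, and the kinase gene msn (rank 1498). The peak in kay was nearest to the start of a non-coding RNA gene. Wingless genes had 2 of 14, at 56.1 per Mb, in sgg (ranks 2130 and 3534), the GSK-3 kinase gene, and arr (rank 3350), a co-receptor gene. Hippo genes had 0 of 13.

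Of ecdysone genes 4 of 17 held a peak, at 57.2 per Mb. In EcR, the ecdysone receptor gene, the peak ranked 973, 268 and 1023 and its nearest start was that of a tRNA gene. Hr4, a nuclear receptor gene, had one at rank 926, and br, which encodes zinc finger factors of metamorphosis, at rank 1013, nearest to the start of Mur2B. The list of GATA factor and hemocyte genes held one in 2 of 13, at 93.7 per Mb, with ush first. The fat body list held one in 2 of 18, at 82.1 per Mb (54.7 per Mb with only the strongest summit kept within 250 bp), with bmm, the gene of a triglyceride lipase, at ranks of 151, 260 and 168, and Lsd-2, a lipid droplet protein gene, at ranks of 441, 243 and 754.

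The lists nearest to the known roles of sv each held few of the peaks, as did the other lists. The shares of genes are given below beside 3.09% of all protein-coding genes. Of sensory organ and bristle genes 2 of 23 held a peak (8.70%), at 45.4 per Mb, close to the value for all genes. These were elav, which encodes a neuronal RNA-binding protein, with ranks of 1001, 272 and 335, and neur, a ubiquitin ligase gene of the Notch pathway, with ranks of 591, 1026 and 615. neur was also the 1 of 18 Notch genes, at 22.2 per Mb. Of eye cone and pigment cell genes 3 of 21 held one (14.3%), at 26.6 per Mb. These were kirre (rank 1208), aop (rank 2127) and pnt (rank 2432), which encode an adhesion protein and a pair of ETS factors. The peak in kirre was nearest to a start of CG32795, a gene that also holds it. Neurons and glia had 4 of 16, at 86.5 per Mb, with elav, Gs2 (rank 842), which encodes a glutamine synthetase, and nrv2 (rank 2384), a sodium pump subunit gene, as the strongest. Muscle genes had 2 of 21, at 34.6 per Mb, in rhea (rank 637), which encodes talin, and tsr (rank 756), which encodes cofilin. The clock list had Pdp1 (rank 1430) as 1 of 11, at 36.5 per Mb, the trachea and epidermis list rib (rank 3461) as 1 of 13, at 24.8 per Mb, and the midgut and salivary gland lists 0 of 11 and 0 of 13.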

How the data were processed

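ChIP-seq peak lists in dm6 of 3 biological replicates were used; the dm3 lists were not. The authors deposited an optimal list thresholded on reproducibility (IDR), a pooled list and 1 list per replicate of 30000 peaks each, called against a shared control per the deposited file manifests. The signal values the authors deposited rank the peaks, and their scaling to library size is not known; the deposited −log10 q-values were not used for ranking. The caller, its thresholds and the read depth were not in the sources used here, so the precision of each signal value is unknown and Wilson intervals cover the counting of peaks only. Low-ranked peaks of the relaxed lists contain background.

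Positions, counted from 1, were compared with the Ensembl release 115 annotation (BDGP6.54) on the NCBI Release 6 genome, the coordinates of dm6. Annotated transposable elements were not counted as genes. A downstream or upstream side is relative to the nearest start. Analyses used Python 3.11.15, numpy 2.4.6, scipy 1.17.1 and matplotlib 3.10.9 and were tested on simulated positions. Summits in a list were at least 199 bp apart, and 89 of the 513 peaks (17.3%) had another optimal summit within 250 bp. Matches to replicates could reuse a summit, which touched 14, 24 and 22 peaks in replicates 1, 2 and 3. Of 300 list entries 10 had no match by name.

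1 host gene is not reported here. Named genes were the hosts of the 15 strongest peaks, hosts with 3 or more, up to 3 per list with the strongest peaks, those nearest the distance limits and those within the first 100 of all replicates; tkv, put, Fhos and the genes of the other ratios were named after their values were seen. The members and lists were chosen with earlier results of these data known. Alternatives were other distances, annotations, windows, list sizes and matching rules, and leaving out each replicate in matching and in tests. The optimal set was not called again.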

Additional observations from a re-analysis of the deposited data

How the results depend on the processing

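Of 89 alternative values, 63 stayed within 1.5 times the count, the Wilson interval or the spread between replicates, and 26 moved; 0 changed direction. The 1911 strongest optimal peaks held 255 near-start intronic peaks, with a median signal of 165. A limit of 1500 bp gave 10.5% of the optimal set, a median signal of 114 and 50.3 summits per Mb, and a limit of 3000 bp gave 16.5% and 38.3 per Mb. With protein-coding starts only, the share was 13.0%, the nearest start was of the host in 88.7% and the density was 48.7 per Mb. To leave out replicate 1, 2 or 3, the optimal set was cut to peaks found among the strongest 3823 of both other replicates. This kept 342, 364 and 364 near-start intronic peaks, with a median signal of 138 to 144, since weaker peaks drop out. The optimal set itself still came from all 3 replicates. Keeping 1 summit per 250 bp gave a median of 115 and counting transposable elements as genes 112; both were chosen after seeing the data. The share found in all 3 replicates was 52.6% with summits within 100 bp, 65.9% within 500 bp, 65.7% by any overlap of intervals, 96.1% in the whole lists, 34.3% with 1911 replicate peaks and 94.5% for the 1911 strongest optimal peaks. Windows of 100 bp on each side gave a GC content of 35.0%, the GATA motif in 44.6% and TATAAA in 40.7%. ACAGTG occurred in 9.94% with 50 bp and 22.2% with 100 bp on each side of the summit, and 82.4% of the copies within 100 bp pointed to the summit, windows chosen after seeing the data. No paired analysis was possible because there was only 1 group, so that no replicate number pairs samples across groups; the sign-flip tests compare sets of peaks within each replicate. The read depth is unknown, and peaks ranked below 2868 were seldom found in all 3 replicates.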
